A study of Homo sapiens with 4 samples.

Results

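The splicing factors described here are the 53 genes of 18840 in the table whose symbols name an SR protein (SRSF), a heterogeneous nuclear ribonucleoprotein (HNRNP), a protein of the small nuclear ribonucleoproteins (SNRP, without SNRPN) or a subunit of splicing factor 3 (SF3A or SF3B). The symbol alone chose them and no measured value was used. They were read in 4 libraries of MCF10A, an immortalised, non-tumorigenic human breast epithelial line grown in DMEM/F12 medium with EGF, insulin, hydrocortisone, cholera toxin and horse serum. Each library came from cells that stably carried 1 pBabe retroviral construct. The vector library held the empty construct and the GFP library expressed a fluorescent protein, and these served as the controls. The remaining libraries carried miR-105, a microRNA, or MYC, a transcription factor. Whether each line was 1 clone or a pool is not given in the labels. Each construct had 1 library, so no difference below has a replicate check and none has a p-value. Intervals in brackets are 95% intervals that cover counting error alone.

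Splicing removes introns from pre-mRNA on the spliceosome, which is built from small nuclear RNAs wrapped in a ring of Sm proteins and from their partner proteins. The SF3A and SF3B proteins are parts of the U2 particle and hold it at the branch site. SR proteins bind exons and mostly favour the use of nearby splice sites, while hnRNP proteins coat pre-mRNA and often oppose that use. MYC is known to raise transcription of several of these genes, SRSF1 among them, and of PRMT5, the enzyme that methylates Sm proteins before the ring is assembled.

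Read totals lay between 6859698 (miR-105) and 14025115 (GFP). Of the 53 genes, 52 reached a mean of 1 CPM (read counts scaled to a common depth with TMM factors), and in each library they had a median between 975 and 1372.5 reads. SRSF12 was the exception, with 6 reads in MYC, 4 in vector and 0 in GFP and in miR-105. MYC mRNA, which checks the labels, stood at 207, 198, 463 and 232 CPM in the order vector, GFP, miR-105 and MYC, the order of every set of 4 values below. MYC mRNA was thus highest under the miR-105 label. The library labelled MYC, at 232 CPM, was above both controls but by less than the 1.5-fold used below. By that threshold, this check did not show raised MYC mRNA there. Each direction therefore belongs to the library so labelled, and no value below is tied to a measured rise of MYC in the library that bears its name. Where a pair of folds is given without a name, the vector library comes before GFP. All 6 epithelial markers were present, with a summed level of 9899, 8023, 6219 and 6522 CPM. In miR-105, KRT5, KRT18 and EPCAM were at least 1.5-fold above both controls and KRT14 and KRT17 below them, and in MYC KRT5 and EPCAM were above and KRT14, KRT17 and CDH1 below. Of the 8 markers of other cell types, COL3A1 had 0 reads throughout, and PTPRC, CD3E, HBB and ALB had at most 2 reads in any library. PECAM1 stood at 12.8, 15.9, 1.73 and 2.46 CPM and was 1 of 2 markers of the 8 that reached a mean of 1 CPM. The other was the highest of the 8 in miR-105 and MYC, at 9.72 and 16.5 CPM, and passed 1.5-fold in neither direction.

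Among the members, 5 symbols are near-identical copies of others. HNRNPCL1, HNRNPCL3 and HNRNPCL4 had the same reads in every library, 464, 524, 588 and 725, which equalled 9.58% to 11.5% of the HNRNPC reads. HNRNPCL2 stood at 6.28% to 6.74% of HNRNPC, and HNRNPA1L2 at 8.05% to 22.1% of HNRNPA1. How reads were shared among copies is not given in the sources used here. These 5 are therefore uncertain, and the counts of members at 1.5-fold in each comparison are also given without them. At other thresholds and scalings, and in the share of summed reads, they are included. HNRNPA1, HNRNPA3, HNRNPC, HNRNPK, SNRPG and SNRPF also have between 4 and 74 pseudogenes named after them in the reference annotation, and their values share that limit.

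In the library labelled miR-105, most of the splicing factors stood above both controls. A gene was counted as higher or lower when it differed from the vector library and from the GFP library by at least 1.5-fold in the same direction. By that rule 36 of 52 were higher, where 24% of all 12484 genes were, and 1 of 52 was lower, where 24.7% of all genes were. Without the near-identical copies, 32 of 47 were higher and 1 was lower. At 2-fold, 24 of 52 were higher against 14.7% of all genes, and none was lower against 16.6%. The median log2 difference from the mean of the controls was 1.07 over the 52 genes and 0.0052 over all genes. In summed reads, the splicing factors made up 0.746% of the vector library, 0.689% of GFP, 1.38% of miR-105 and 1.02% of MYC.

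Proliferation markers moved with this result. All 9 measured markers were higher in the library labelled miR-105, where their summed level was 4494 CPM, against 106 in vector, 87.3 in GFP and 236 in MYC. Their median level was 516 CPM in miR-105, 11.8 in vector, 11.1 in GFP and 17.8 in MYC. Their part in the splicing factor values was not tested. In RNA from a whole culture, a larger share of dividing cells and more of a transcript per cell cannot be told apart.

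**Figure D1:**
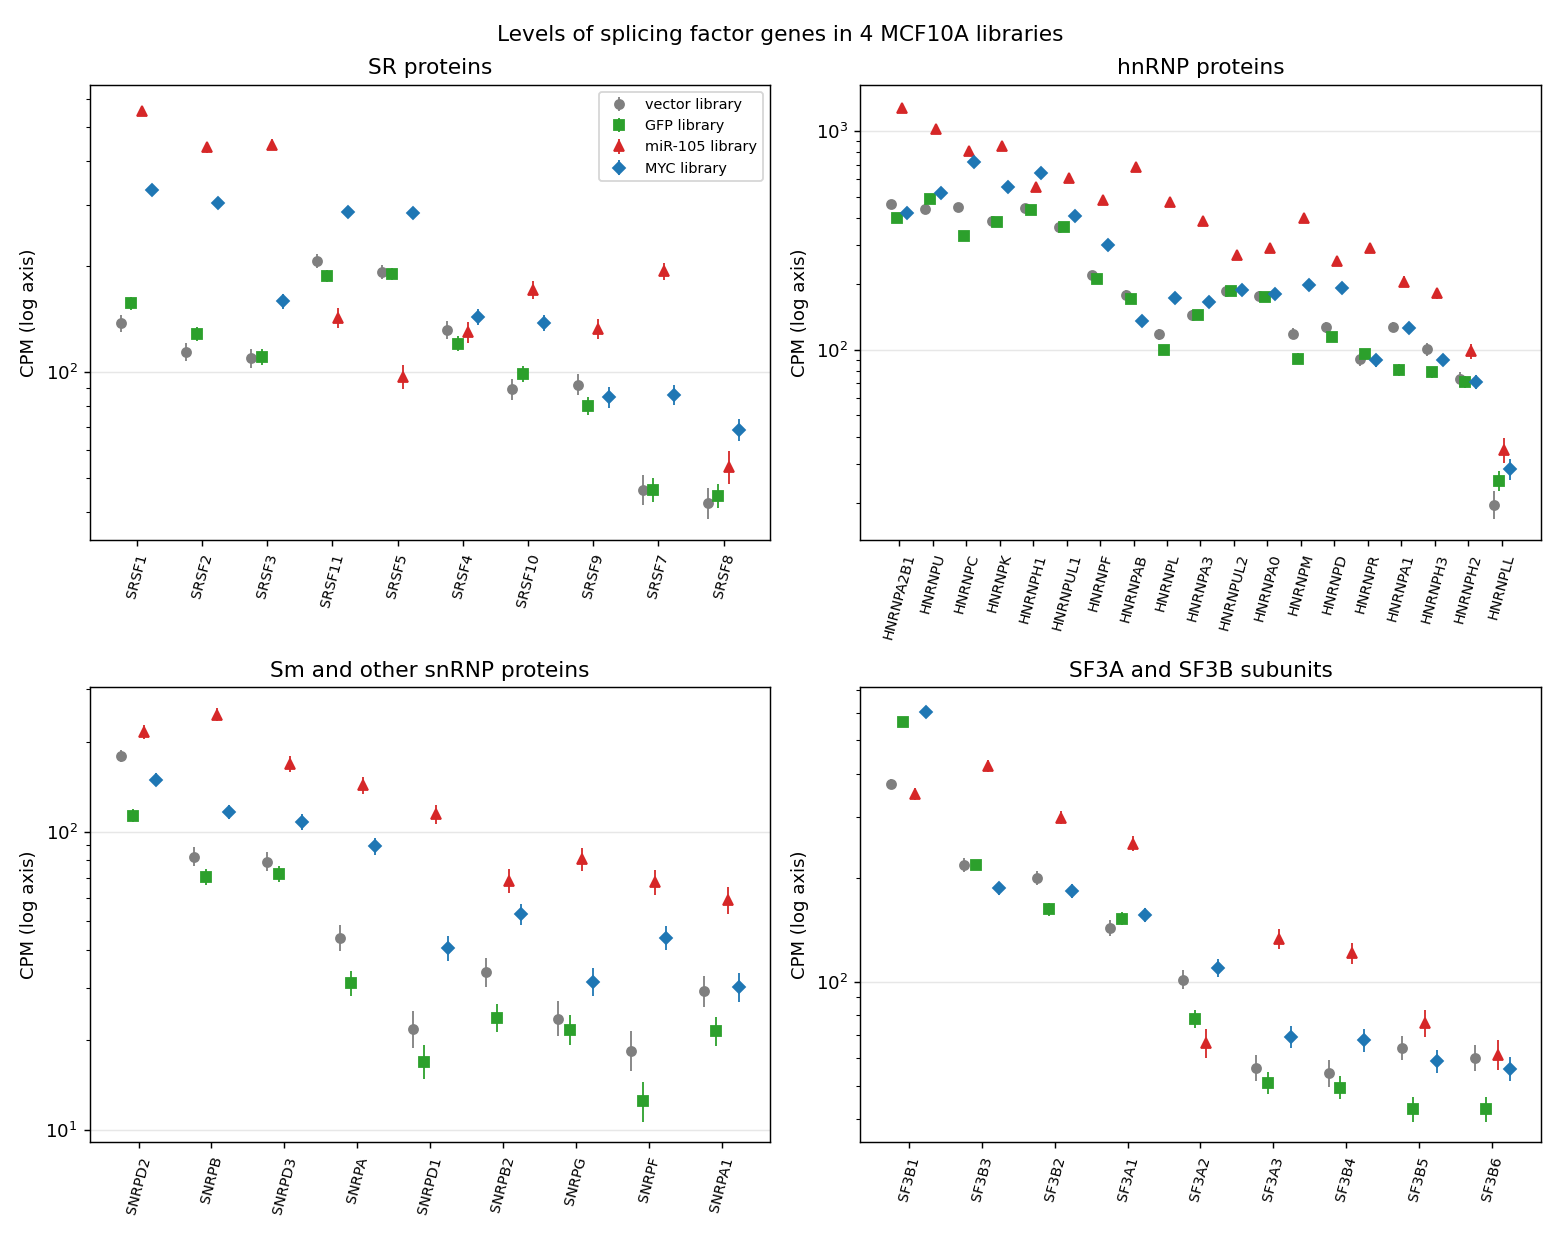
Level of each measured splicing factor gene in the 4 libraries, 1 panel per family, in CPM on a log axis, with bars for the 95% counting interval. Near-identical copies are left out. The miR-105 points lie above the vector and GFP points for most genes, and SRSF5, SRSF11, SF3A2 and SF3B1 lie below them.

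The proteins of the small nuclear ribonucleoproteins had the largest family median in the library labelled miR-105, 1.69 on the log2 scale, and 8 of 9 were higher. SNRPD1, a member of the Sm ring, stood at 21.8, 16.98, 114 and 40.7 CPM, so that the miR-105 library was 5.24-fold (4.47 to 6.15) above vector and 6.74-fold (5.81 to 7.84) above GFP. This was the largest difference among all 52 genes. SNRPF, another ring protein, stood at 18.5, 12.5, 67.6 and 44.1 CPM, or 3.66-fold (3.06 to 4.39) above vector and 5.41-fold (4.52 to 6.49) above GFP. SNRPG stood at 23.7, 21.7, 80.6 and 31.4 CPM and SNRPB, the Sm protein B/B′, at 82.4, 70.4, 246 and 116 CPM. SNRPG was thus 3.41-fold and 3.72-fold higher and SNRPB 2.99-fold and 3.50-fold higher. SNRPD3, with 79.2, 72.2, 168 and 108 CPM, was 2.12-fold and 2.33-fold higher. Outside the ring, SNRPA, whose protein binds a stem-loop of U1 RNA, stood at 44.00, 31.1, 143 and 89.3 CPM, or 3.24-fold (2.88 to 3.65) above vector and 4.58-fold (4.08 to 5.15) above GFP. SNRPB2, which binds U2 RNA together with SNRPA1, stood at 33.8, 23.8, 68.4 and 52.8 CPM and was 2.02-fold and 2.88-fold higher. SNRPA1 itself stood at 29.2, 21.5, 58.97 and 30.1 CPM and was 2.02-fold and 2.75-fold higher. SNRPD2 was the exception, with 179, 113, 215 and 149 CPM. It was 1.20-fold (1.12 to 1.29) above vector and 1.91-fold (1.77 to 2.05) above GFP, so it passed the threshold against GFP alone. Each Sm ring takes up its proteins in equal numbers, while their mRNAs lay at unequal levels. Per kilobase of exon, SNRPD2 took 36.3% of the family in vector, 30.5% in GFP and 19.9% in miR-105. In the same order SNRPB took 21.7%, 24.7% and 29.5%, and SNRPD1 1.35%, 1.40% and 3.22%. Lengths were those of all annotated exons together, 4.91 kb for SNRPD1 and 1.15 kb for SNRPB. Levels per kilobase of different genes therefore depend on the annotation.

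Among the SR proteins, 5 of 10 were higher in the library labelled miR-105 and 1 was lower, with a family median of 0.74. SRSF7, which also serves as an adaptor for mRNA export, stood at 46.3, 46.3, 194 and 86.1 CPM, or 4.19-fold (3.75 to 4.69) above vector and 4.19-fold (3.81 to 4.62) above GFP. SRSF3, the smallest SR protein and likewise an export adaptor, stood at 109, 111, 444 and 159 CPM, or 4.06-fold (3.77 to 4.36) above vector and 4.02-fold (3.77 to 4.28) above GFP. SRSF1, the founding member of the family, stood at 138, 157, 555 and 331 CPM, or 4.04-fold (3.78 to 4.31) above vector and 3.54-fold (3.35 to 3.74) above GFP. SRSF2, a marker of nuclear speckles, stood at 114, 129, 436 and 303 CPM, or 3.82-fold (3.56 to 4.11) above vector and 3.39-fold (3.19 to 3.60) above GFP. The miR-105 value of each of these 4 genes was more than 3-fold above both controls. SRSF10, known as a repressor when it loses its phosphates, stood at 89.3, 98.7, 171 and 138 CPM and was 1.92-fold and 1.73-fold higher. SRSF5 went the other way, at 193, 190.0, 96.8 and 284 CPM. It was 1.996-fold (1.82 to 2.19) below vector and 1.96-fold (1.80 to 2.15) below GFP, and it was the 1 member of all 52 below both controls by the threshold. SRSF11, whose protein contacts U2AF, stood at 207, 187, 143 and 286 CPM and was 1.46-fold (1.34 to 1.58) below vector and 1.31-fold (1.22 to 1.42) below GFP, short of the threshold. SRSF4 (132, 121, 129.7 and 144 CPM), SRSF8 (42.3, 44.4, 53.6 and 68.4 CPM) and SRSF9 (92.2, 80.3, 133 and 84.8 CPM) passed in neither direction.

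The makeup of the SR family differed between the libraries. Levels of different genes were compared per kilobase of exon, as shares of the summed SR level. SRSF6 had no values, so these shares and ranks leave it out. SRSF9 ranked first in both controls, with 19.9% in vector and 17.6% in GFP, and SRSF5 second with 15.1% in each. In miR-105, SRSF1 ranked first with 22.6% (11.1% in vector and 12.9% in GFP) and SRSF2 second with 19.4% (10.1% and 11.6%). SRSF5 held 3.80% there and ranked 8 of 10. SRSF11 went from 11.8% in vector to 4.08%, and SRSF4 from 14.3% to 7.07%. SRSF3 and SRSF7 held 13.2% and 10.1% in miR-105, against 6.45% and 4.81% in vector. In MYC, SRSF2 and SRSF1 also ranked first and second, with 17.4% and 17.3%, but SRSF5 kept 14.4% and SRSF11 10.5%. The summed SR level was 1164 CPM in vector, 1164 in GFP, 2356 in miR-105 and 1884 in MYC.

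**Figure D2:**
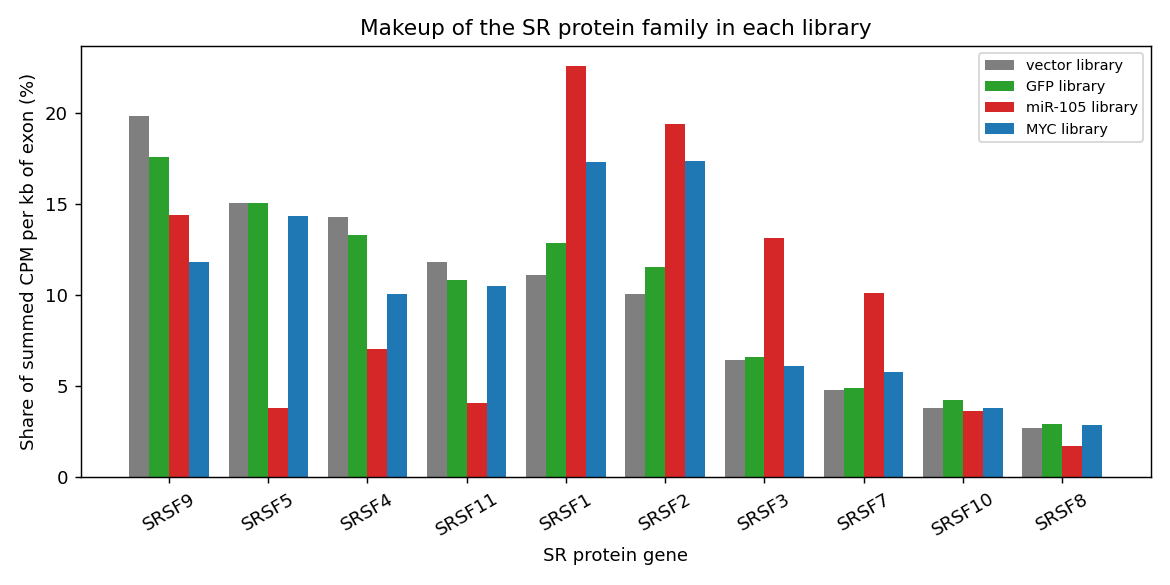
Share of each SR protein gene in the summed SR level per kilobase of exon, in percent, for the 4 libraries. SRSF1, SRSF2, SRSF3 and SRSF7 take larger shares in miR-105 than in the controls, and SRSF5, SRSF11, SRSF4 and SRSF9 take smaller ones.

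Of the hnRNP genes, 19 of 24 were higher in the library labelled miR-105, and 15 of 19 without the copies, with none lower. HNRNPL, which binds CA-rich RNA, stood at 118, 99.5, 473 and 172 CPM, or 4.03-fold (3.76 to 4.32) above vector and 4.75-fold (4.46 to 5.07) above GFP. HNRNPAB stood at 178, 169.7, 683 and 135 CPM, or 3.83-fold (3.62 to 4.06) above vector and 4.03-fold (3.83 to 4.23) above GFP. HNRNPM, a regulator of epithelial splice choices, stood at 118, 90.9, 401 and 197 CPM, or 3.39-fold (3.16 to 3.64) above vector and 4.41-fold (4.12 to 4.72) above GFP. These 3 led the family, and HNRNPR (90.2, 95.1, 292 and 89.3 CPM) followed with 3.24-fold and 3.07-fold. HNRNPA2B1, which sorts some microRNAs into exosomes, stood at 465, 399.8, 1275 and 419 CPM. It was 2.74-fold (2.64 to 2.85) above vector and 3.19-fold (3.08 to 3.30) above GFP. HNRNPA3 was 2.68-fold and 2.69-fold higher. The G-tract binder HNRNPF (219, 209, 485 and 299 CPM) was 2.21-fold and 2.32-fold higher, and HNRNPK, which binds C-rich RNA, 2.20-fold and 2.24-fold. HNRNPU, a scaffold attachment protein that binds both RNA and chromatin, stood at 438, 487, 1016 and 522 CPM, or 2.32-fold (2.23 to 2.41) above vector and 2.09-fold (2.02 to 2.16) above GFP. HNRNPD, also called AUF1 and known for binding AU-rich elements, stood at 126, 114, 254 and 190.5 CPM and was 2.01-fold and 2.23-fold higher.

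The remaining hnRNP genes differed less. HNRNPC, which binds uridine tracts, stood at 447, 329, 807 and 717 CPM, or 1.80-fold (1.73 to 1.88) above vector and 2.45-fold (2.36 to 2.55) above GFP. HNRNPA1, an antagonist of SRSF1 at many splice sites, stood at 127, 80.7, 205 and 125 CPM, or 1.61-fold (1.49 to 1.75) above vector and 2.54-fold (2.34 to 2.75) above GFP. Its controls differed by more than the threshold, so its fold depended on which was used. HNRNPH3 (100.1, 78.7, 181 and 89.7 CPM) was 1.81-fold and 2.30-fold higher, and HNRNPUL1 (363, 361, 608 and 409 CPM) was 1.67-fold and 1.68-fold higher. HNRNPA0 was 1.65-fold and 1.66-fold higher. HNRNPH1 (444, 433, 554 and 639.9 CPM), HNRNPH2 (73.1, 71.2, 98.5 and 70.9 CPM), HNRNPUL2 (186, 185, 272 and 186 CPM) and HNRNPLL (19.6, 25.2, 34.7 and 28.3 CPM) did not reach 1.5-fold against both controls. All 4 still lay above both controls. Per kilobase, HNRNPK and HNRNPH1 were the highest of the 19 genes in both controls, and HNRNPAB ranked 3. In miR-105, HNRNPAB ranked 1 with 15.7% of the family, HNRNPK 2 with 12.1% and HNRNPH1 7 with 6.42%.

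The subunits of splicing factor 3 split in the library labelled miR-105, with 4 of 9 higher, none lower and a median of 0.73. SF3A3 stood at 56.2, 50.9, 133 and 69.1 CPM, or 2.37-fold (2.12 to 2.65) above vector and 2.61-fold (2.36 to 2.89) above GFP. SF3B4, which touches pre-mRNA near the branch site, stood at 54.3, 49.4, 121 and 67.6 CPM, or 2.23-fold (1.99 to 2.50) above vector and 2.45-fold (2.21 to 2.72) above GFP. SF3B3, a scaffold of the SF3B complex, stood at 218, 218, 420.2 and 186 CPM and was 1.93-fold and 1.93-fold higher. SF3A1 stood at 143, 152, 251 and 156 CPM and was 1.75-fold and 1.65-fold higher. The other 5 of 9 passed in neither direction. SF3B2 came closest, with 199, 162, 298 and 183 CPM, just under the threshold against vector and 1.84-fold above GFP. SF3B5, a small subunit, stood at 64.4, 42.8, 75.8 and 58.8 CPM, 1.18-fold and 1.77-fold above the controls. SF3B6, which lies next to the branch adenosine, stood at 60.2, 42.8, 61.3 and 55.9 CPM, 1.02-fold and 1.43-fold above them. SF3B1, the large subunit that clamps the branch site, stood at 374, 564, 349 and 603 CPM. It was 1.07-fold (1.02 to 1.13) below vector and 1.62-fold (1.54 to 1.70) below GFP. SF3A2 stood at 101, 78.01, 66.3 and 109.7 CPM and was 1.53-fold (1.36 to 1.72) below vector and 1.18-fold (1.05 to 1.32) below GFP. The summed SF3 level was 1270.5 CPM in vector, 1359.7 in GFP, 1775 in miR-105 and 1489.8 in MYC.

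**Figure D3:**
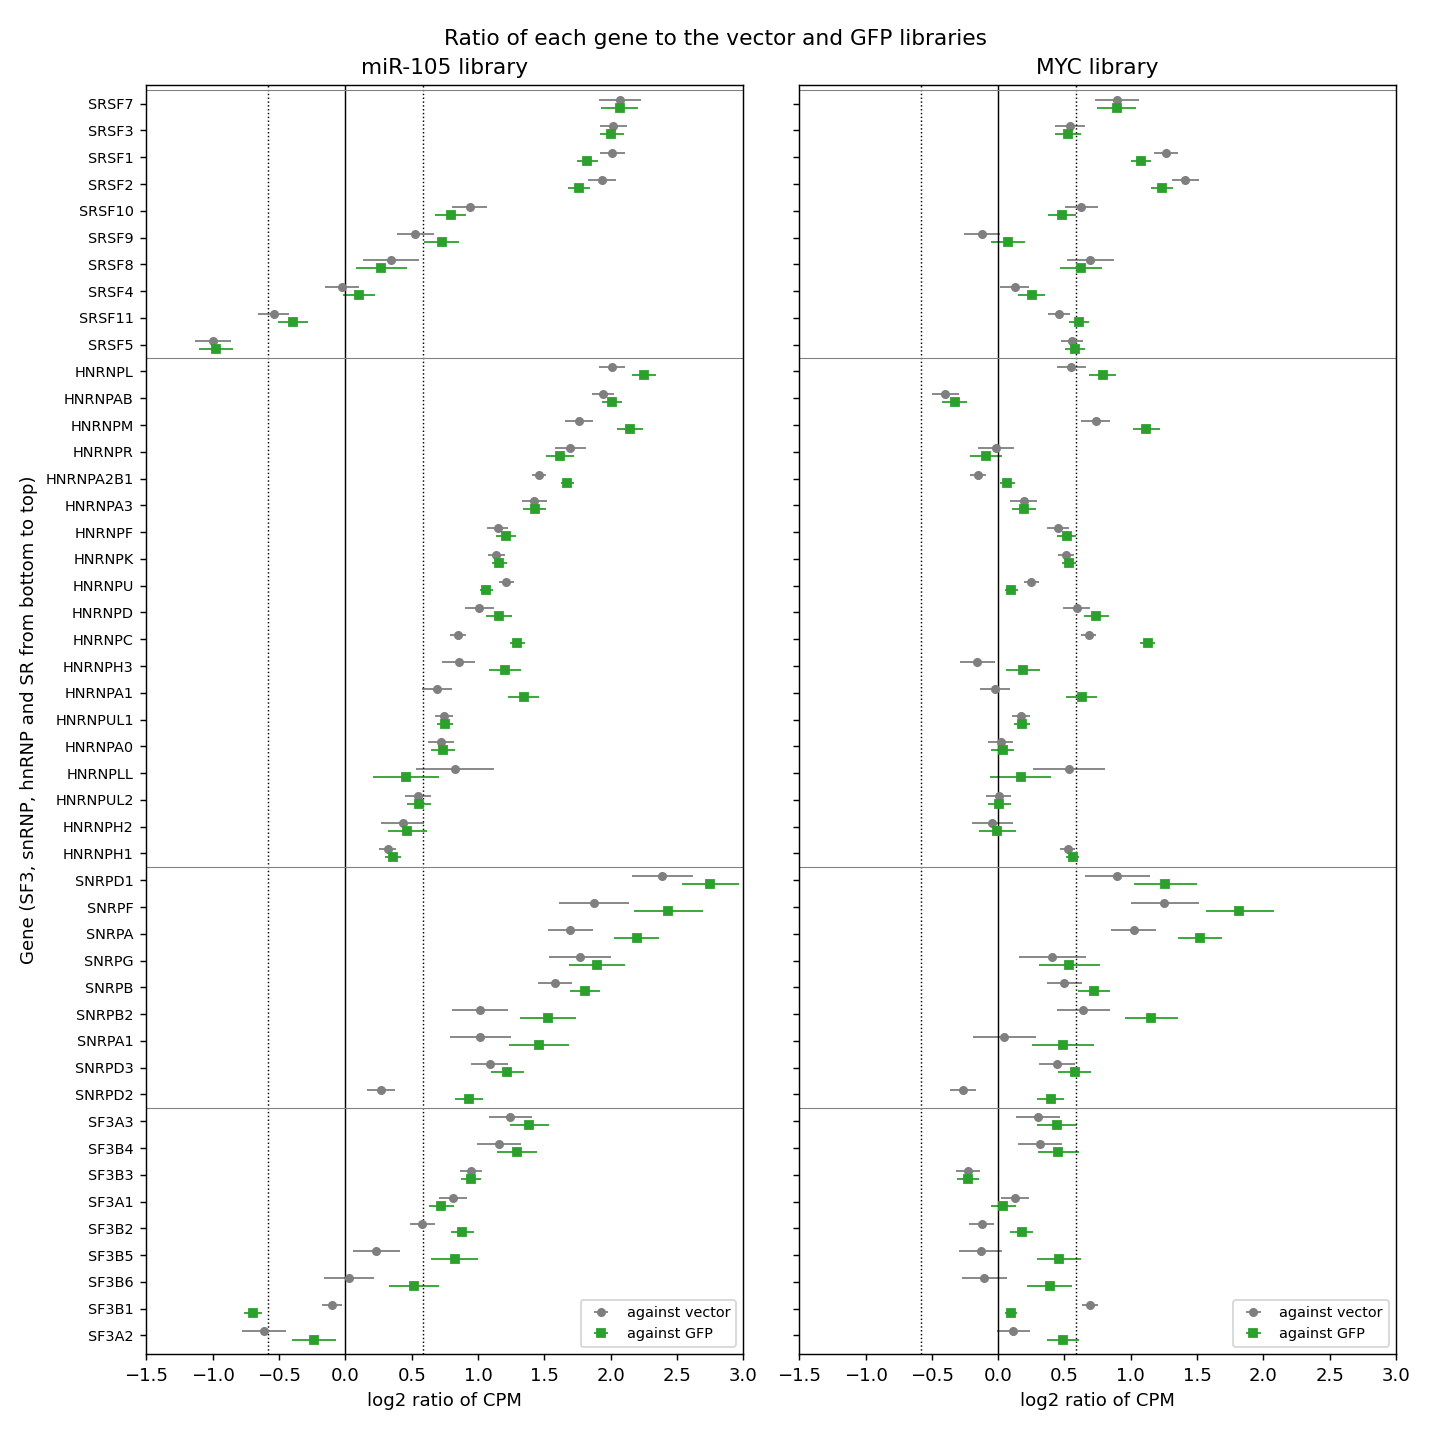
Log2 ratio of CPM of each splicing factor gene in the miR-105 library (left) and the MYC library (right) against the vector library and against the GFP library, with bars for the 95% counting interval and dotted lines at 1.5-fold. Most genes lie right of the upper line in the left panel, and most lie between the lines in the right panel.

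Because miR-105 acts on mRNAs that pair with its seed, the seed matches in the members' 3′ untranslated regions are shown beside their values. The mature strand, hsa-miR-105-5p (RefSeq, GRCh38.p14, chrX:152392265-152392287, minus strand), reads as follows, with the seed, bases 2 to 8, in capitals.
hsa-miR-105-5p: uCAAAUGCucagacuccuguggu
Its 7-base match, GCATTTG, was sought on the transcript strand in the longest annotated 3′ region of each gene's principal transcripts (GENCODE v29). It occurred 5 times in 4 of 47 members, all printed here with the match in capitals.
HNRNPA0, base 3404 of 7498: ttgcagatagGCATTTGgatgttggat
HNRNPA3, base 680 of 693: atttaaattaGCATTTGtgaattt
HNRNPK, base 149 of 1324: taggtgttctGCATTTGaggtgtagtg
HNRNPK, base 1173 of 1324: tagtatcttgGCATTTGtattgatagt
SRSF11, base 520 of 2247: ctggaaatgaGCATTTGaaatagataa
Of the genes that hold a match, HNRNPK (387, 381, 852 and 551 CPM), HNRNPA3 (144, 144, 387 and 165 CPM) and HNRNPA0 (176, 175, 291 and 179 CPM) were higher in the library labelled miR-105, and SRSF11 passed in neither direction. SRSF5 held none. A match was found in 8.51% of the members and in 15.2% of all 11992 measured genes with such a region, or 0.0724 and 0.105 matches per kilobase. A match is a description of the sequence and not a shown target site.

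In the library labelled MYC, fewer splicing factors passed. Of 52 genes, 11 were higher, where 16.6% of all genes were, and none was lower, where 17.2% of all genes were. At 2-fold, 4 of 52 were higher against 9.03% of all genes, and none was lower against 10.4%. The share of members higher, 21.2%, was near that of all genes. Without the copies, 11 of 47 were higher, or 23.4%, and none was lower. The median log2 difference was 0.47, and 0.38 without the copies, against 0.036 over all genes. Scaling by library totals alone raised the count to 18, the share of all genes to 20.1% and the median of all genes to 0.14. Leaving out the vector library raised the count to 20 and the share of all genes to 23.1%. Of the 9 proliferation markers, 6 were higher in this library. Their part in these values was not tested. The miR-105 and MYC comparisons share both control libraries, so their counts are not independent of each other.

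The SR proteins held 4 of the 11, or 40% of the 10 measured SR genes, against 16.6% of all genes. In the library labelled MYC, SRSF2 was 2.66-fold (2.48 to 2.85) above vector and 2.36-fold (2.22 to 2.50) above GFP. SRSF1 was 2.40-fold (2.25 to 2.56) above vector and 2.11-fold (1.997 to 2.22) above GFP. SRSF7 was 1.86-fold (1.66 to 2.09) above vector and 1.86-fold (1.68 to 2.06) above GFP. SRSF8, a close relative of SRSF2, was 1.62-fold (1.43 to 1.84) above vector and 1.54-fold (1.38 to 1.72) above GFP, and it was the 1 gene to pass in MYC without passing in miR-105. SRSF5, below the controls in miR-105, was 1.47-fold (1.39 to 1.56) above vector and 1.49-fold (1.42 to 1.58) above GFP in MYC. SRSF11, also below them in miR-105, was 1.38-fold (1.30 to 1.46) above vector and 1.52-fold (1.44 to 1.61) above GFP in MYC. SRSF5 missed the threshold against both controls by little. SRSF3, about 4-fold higher in miR-105, was 1.46-fold and 1.44-fold above the controls in MYC.

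Of the snRNP proteins, 4 of 9 were higher in the library labelled MYC (44.4%, against 16.6% of all genes), and the family median was 0.61. SNRPF was 2.38-fold (1.997 to 2.86) above vector and 3.53-fold (2.96 to 4.23) above GFP. SNRPA was 2.03-fold (1.81 to 2.29) above vector and 2.87-fold (2.56 to 3.22) above GFP. These were the largest folds over vector after SRSF2 and SRSF1. SNRPD1 was 1.86-fold (1.57 to 2.21) above vector and 2.40-fold (2.04 to 2.82) above GFP. SNRPB2 was 1.56-fold (1.36 to 1.80) above vector and 2.22-fold (1.94 to 2.55) above GFP. The other Sm genes were nearer the controls, with SNRPB at 1.41-fold and 1.65-fold and SNRPG at 1.33-fold and 1.45-fold. The hnRNP family had 3 of 24 higher (12.5%, and 15.8% without the copies), which was under the 16.6% of all genes. Its median was 0.41, and 0.19 without the copies. HNRNPM was higher by 1.66-fold and 2.17-fold, HNRNPC by 1.60-fold and 2.18-fold and HNRNPD by 1.51-fold and 1.67-fold. HNRNPAB was 1.32-fold (1.23 to 1.41) below vector, the lowest of the family by mean log2 difference (-0.36). Of the 9 SF3 genes none was higher and none lower. SF3B1 stood 1.61-fold (1.55 to 1.68) above vector and 1.07-fold (1.03 to 1.11) above GFP, and SF3B3 lay 1.17-fold and 1.17-fold below the controls.

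In all, 10 genes were higher in both libraries: SRSF1, SRSF2, SRSF7, HNRNPC, HNRNPD, HNRNPM, SNRPA, SNRPB2, SNRPD1 and SNRPF. A further 26 were higher in miR-105 alone and SRSF8 in MYC alone, SRSF5 was lower in miR-105 alone, and 14 of the 52 passed in neither. The same overlap was not counted over all genes, so these numbers have no all-gene share beside them and only sort the members. Of the 10, HNRNPD no longer passed in MYC with median-of-ratios scaling or with 2 CPM added. No gene passed in opposite directions. Where a gene passes in 1 library and not in the other, the direct comparison of those libraries gives the difference, and it does not use the controls. Some of the 26 did not reach 1.5-fold there, such as SRSF10 at 1.24-fold and HNRNPUL1 at 1.49-fold above MYC.

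Set directly against the library labelled MYC, the library labelled miR-105 had 28 of 52 genes at least 1.5-fold higher, where 30.3% of all genes were, and 5 lower, where 29.3% were. Without the copies, 28 of 47 were higher and 4 were lower. The median was 0.63 over the 52 members and 0.051 over all genes. With library totals alone the count of members fell to 17, the share of all genes to 24.2% and the median of all genes moved to -0.15, and 40.7% of all calls were higher in place of 50.8%. At 2-fold 13 members were higher, against 19% of all genes, and 1 was lower, against 19.8%. The largest differences were those of HNRNPAB at 5.05-fold (4.75 to 5.36) above MYC, HNRNPR at 3.27-fold (3.02 to 3.54) above MYC and HNRNPA2B1 at 3.04-fold (2.93 to 3.16) above MYC. SNRPD1 was 2.81-fold (2.49 to 3.17) above MYC and SRSF3 2.79-fold (2.62 to 2.96) above MYC. SRSF5 was the furthest in the other direction, 2.93-fold (2.69 to 3.20) below MYC. SRSF11 followed with 2.003-fold (1.86 to 2.16) below MYC, then SF3B1 with 1.73-fold, HNRNPA1L2 with 1.68-fold and SF3A2 with 1.65-fold.

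The 2 controls, which carry neither miR-105 nor MYC, were compared in the same way. In the GFP library, 1 of 52 splicing factors was at least 1.5-fold above vector, where 13% of all genes were, and 4 were below, where 6.99% were. Without the copies, 1 of 47 was above and 3 were below. At 2-fold none passed in either direction, against 3.06% and 1.03% of all genes. SF3B1 was 1.51-fold (1.45 to 1.57) above vector, at the threshold, and no longer passed with library totals alone, median-of-ratios scaling or the values as deposited. HNRNPA1L2 was 1.69-fold lower, SNRPD2 1.58-fold, HNRNPA1 1.57-fold and SF3B5 1.51-fold. All 9 snRNP genes lay below vector in GFP, with a median of -0.44, so their folds in the other libraries were larger against GFP than against vector. The 10 SR genes lay closest to vector, with log2 differences between -0.20 and 0.19. Among all genes, 64.9% of calls were higher in GFP, and 53.4% with median-of-ratios scaling.

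Genes that act beside the members were read in 8 further lists. They held 131 measured genes, after 2 paralogs with the same reads in every library were counted once. In the library labelled miR-105, 55 were higher and 11 lower, with a median of 0.56. In the library labelled MYC, 19 were higher and 3 lower, with a median of 0.33. These were 42.0% and 8.40% of the listed genes in miR-105, against 24% and 24.7% of all genes. In MYC they were 14.5% and 2.29%, against 16.6% and 17.2%. The share higher in MYC was near or under that of all genes in each list, except for the minor spliceosome (37.5%).

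Genes that build the Sm ring and cap its RNA were higher for 12 of 16 and lower for 1 in miR-105, with that pair counted once, and in MYC 1 was higher. GEMIN5, which recognises snRNA for the SMN complex, stood at 33.5, 44.8, 169 and 61.3 CPM, or 5.04-fold and 3.78-fold higher in miR-105. GEMIN4 (41.3, 38.9, 149 and 54.7 CPM) and WDR77 (38.6, 39.7, 117 and 36.6 CPM), the partner of PRMT5, were next by the smaller of their folds over vector and GFP. PRMT5 itself stood at 74.8, 58.7, 195 and 91.5 CPM. It was 2.61-fold and 3.33-fold higher in miR-105, and at 1.22-fold and 1.56-fold in MYC it passed against GFP alone. GEMIN8 was lower in miR-105, at 46.8, 39.01, 12.7 and 45.5 CPM. GEMIN2 was the gene higher in MYC, by 1.73-fold and 1.96-fold. The LSM genes, whose ring binds the end of U6 RNA, were higher for 5 of 7 in miR-105. LSM5 stood at 19.1, 11.5, 72.8 and 23.2 CPM and LSM4 at 48.9, 38.8, 164 and 66.6 CPM. LSM6 stood at 6.81, 2.96, 24.2 and 7.68 CPM. In MYC only LSM2 of the 7 passed, by 1.70-fold and 2.69-fold.

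Partners of the U1 and U2 particles were higher for 10 of 16 and lower for 1 in miR-105. PHF5A, a small subunit of the SF3B complex, stood at 16.4, 14.8, 54.7 and 25.6 CPM, or 3.33-fold and 3.70-fold higher. U2AF2, which binds the polypyrimidine tract, stood at 144, 131, 338 and 179 CPM, and the helicase DHX15 at 147, 188, 426 and 217 CPM. LUC7L, a U1 partner with an RS region, was 2.45-fold and 1.88-fold lower. In MYC 3 of 16 were higher (18.8%), near the 16.6% of all genes, among them LUC7L3 (238, 209, 140.4 and 454 CPM) and PHF5A. Of the U5 and tri-snRNP proteins, 8 of 16 were higher in miR-105, led by SNRNP40 (14.7, 13.8, 59.9 and 19.7 CPM), PPIH and PRPF4. In MYC PRPF3 was 2.12-fold and 2.04-fold higher and CD2BP2 1.85-fold and 1.78-fold lower. Of the PRP19 complex and the catalytic step factors, 6 of 22 were higher in miR-105 (27.3%), near the share of all genes, and 1 was lower (4.55%), under that share. PPIL1, a cyclophilin of the spliceosome, stood at 8.97, 8.89, 78.1 and 18.8 CPM, or 8.70-fold and 8.79-fold higher, PRPF19 was 2.15-fold and 2.67-fold higher and BCAS2 1.73-fold and 1.98-fold, while SYF2 was lower. In MYC PPIL1 and PRPF19 passed. The minor spliceosome had 1 of 8 higher and 1 lower in miR-105, SNRNP25 (7.46, 4.77, 48.8 and 14.8 CPM) and RNPC3 (15.4, 26.3, 6.59 and 39.6 CPM) in that order. In MYC 3 of the 8 were higher, SNRNP25, SNRNP48 and PDCD7.

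The list of SR protein kinases and importers had a median of -0.30 in miR-105, but its importer, TNPO3, had no values. There, 1 of 8 was higher (12.5%), the phosphatase subunit PPP1R8, and 2 were lower (25%). Of all genes, 24% were higher and 24.7% lower, so the share lower was near that of all genes. CLK1, a kinase that phosphorylates SR proteins in the nucleus, stood at 172, 154, 41.1 and 256 CPM, or 4.18-fold and 3.75-fold lower. CLK4, its close relative, stood at 85.1, 78.3, 19.3 and 93.7 CPM, or 4.41-fold and 4.06-fold lower. CLK2 was unlike both, with 29.5, 28.4, 24.00 and 66.7 CPM, and passed in MYC alone, by 2.26-fold and 2.35-fold. CLK1 in MYC was 1.49-fold and 1.66-fold above the controls.

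Of the other SR-related proteins and splicing regulators, 12 of 38 were higher (31.6%) and 5 lower (13.2%) in miR-105, against 24% and 24.7% of all genes. In MYC 7 were higher (18.4%) and 2 lower (5.26%), against 16.6% and 17.2%. The share higher in MYC was thus near that of all genes. TRA2B, an SR-like activator, stood at 44.5, 43.1, 254 and 92.5 CPM, or 5.70-fold and 5.90-fold higher in miR-105 and 2.08-fold and 2.15-fold in MYC. KHSRP, a KH-domain RNA-binding protein, was 3.10-fold and 3.25-fold higher in miR-105. CIRBP, a cold-inducible RNA-binding protein, was 4.90-fold and 3.57-fold lower, RBM5 2.41-fold and 2.34-fold and MBNL2 1.999-fold and 2.80-fold. In MYC, SREK1 (87.7, 96.2, 94.7 and 196 CPM) and RBM39 (254, 242, 202 and 498 CPM), both with RS regions, were higher, while ESRP1 (191, 231, 254 and 116 CPM), a regulator of epithelial splice forms, and MBNL2 were lower.

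**Figure D4:**
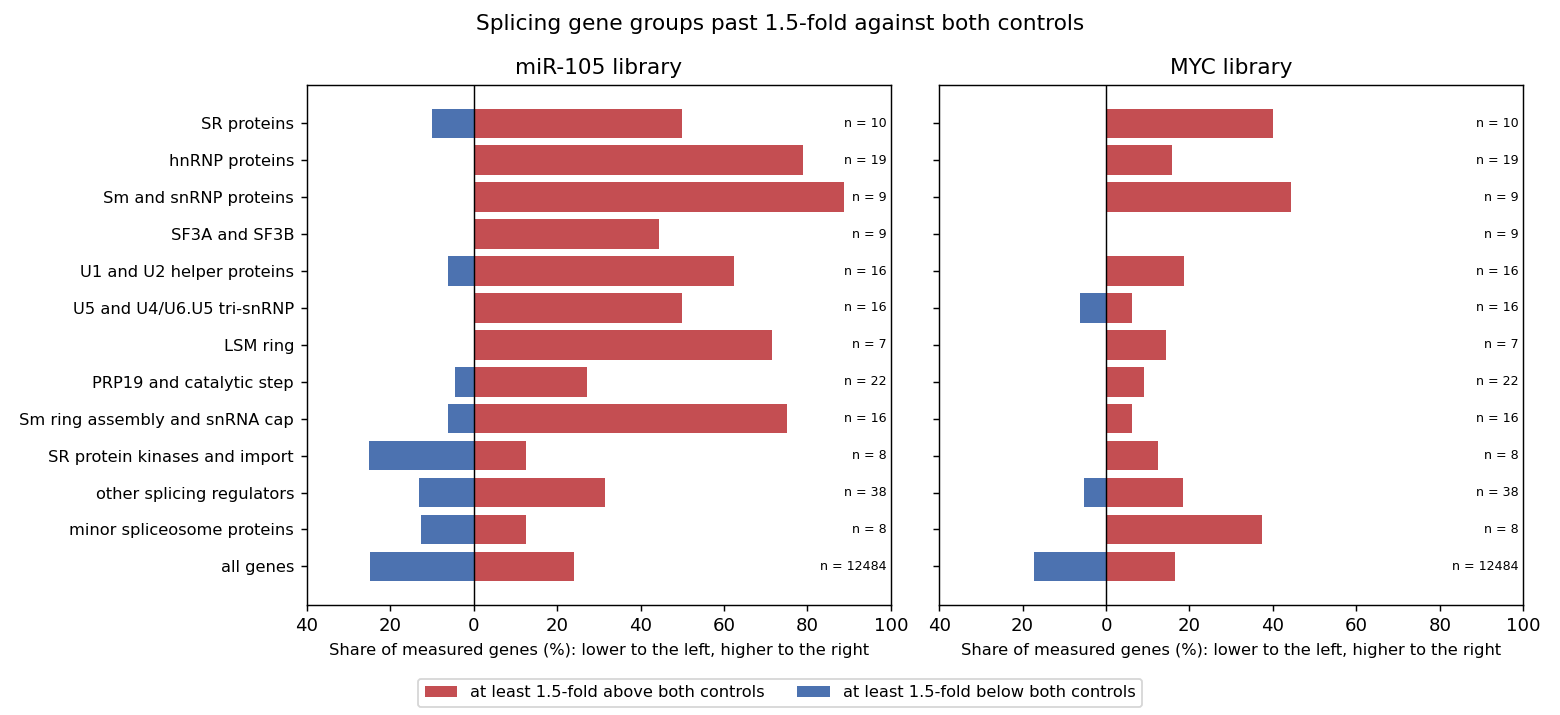
Share of measured genes in each splicing group at least 1.5-fold above (right of 0) or below (left of 0) both controls, in percent, for the miR-105 library and the MYC library, with near-identical copies of members left out and 1 identical pair of the Sm assembly group counted once. The snRNP, hnRNP and Sm assembly genes show the widest bars to the right in the left panel. The SR kinase group has the widest bar to the left there among the splicing groups, near that of all genes.

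Because MYC binds the letters CACGTG, the E-box, the members' promoters were searched for them on both strands, from 250 bases before to 50 after the start in RefSeq (GRCh38.p14). A promoter was at hand for 48 of the 53 members. The E-box was present in 7 of them, or 14.6%, against 8.78% of 14019 promoters. Those 14019 were not filtered by level, so they include genes under a mean of 1 CPM. The 7 were HNRNPA3, HNRNPD, HNRNPH2, HNRNPH3, HNRNPM, HNRNPUL1 and SF3B1. Of these 7, 5 were higher in miR-105, and HNRNPD and HNRNPM were higher in MYC as well. Among all measured members, 36 of 52 were higher in miR-105 and 11 of 52 in MYC. The E-box was present in 5 of 31 promoters of members higher in miR-105 (16.1%) and in 2 of 17 of the others (11.8%). SRSF1, SNRPA and SNRPF held none of these letters in this window. The E2F-type letters TTTCCCGC were present in 3 of 48 (HNRNPLL, SNRPB and SRSF10), or 6.25% against 2.18% of all, and TTTGGCGC in SF3B1 alone, against 0.920% of all. No match overlapped another. The 150 bases before the start are printed for HNRNPM and HNRNPD, the genes with an E-box that were higher in both libraries (HNRNPD within the limit given above), and for SRSF5, the member that was lower in miR-105, with the E-box in capitals. They lie at chr19:8444825-8444974 (plus strand), chr4:82373992-82374141 (minus strand) and chr14:69766992-69767141 (plus strand).
HNRNPM: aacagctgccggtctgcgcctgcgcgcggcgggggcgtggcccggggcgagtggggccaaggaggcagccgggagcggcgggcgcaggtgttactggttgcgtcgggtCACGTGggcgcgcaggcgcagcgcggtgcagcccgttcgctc
HNRNPD: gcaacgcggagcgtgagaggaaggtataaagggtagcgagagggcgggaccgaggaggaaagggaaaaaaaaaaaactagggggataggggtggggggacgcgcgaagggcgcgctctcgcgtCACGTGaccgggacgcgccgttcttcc
SRSF5: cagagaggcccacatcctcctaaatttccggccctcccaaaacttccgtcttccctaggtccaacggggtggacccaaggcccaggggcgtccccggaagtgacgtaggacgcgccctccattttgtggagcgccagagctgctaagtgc
The E-box begins 42 bases before the start in HNRNPM and 27 before it in HNRNPD, and SRSF5 holds none in this stretch. HNRNPM was 3.39-fold and 4.41-fold higher in miR-105 and 1.66-fold and 2.17-fold in MYC, and HNRNPD 2.01-fold and 2.23-fold and 1.51-fold and 1.67-fold. A motif is a description of the letters and not a shown binding site.

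Some members share exon sequence with a neighbour on the other strand. SRSF2 overlaps MFSD11 by 1015 bases, SRSF9 overlaps GATC by 495 and SF3A2 overlaps PLEKHJ1 by 398. The sources used here give no strand setting for the counting, and reads from such pairs cannot be told apart. MFSD11 had 311, 600, 471 and 687 reads. HNRNPH2 shares 362 bases with the readthrough gene RPL36A-HNRNPH2 on its own strand. Several SR genes also make transcripts with a premature stop, and a total per gene does not separate these from transcripts that encode the protein.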

How the data were processed

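Poly(A) RNA-seq from 4 MCF10A libraries, 1 per construct, was used. The values deposited by the authors were a depth-adjusted signal in the form of edgeR pseudo-counts, where the planned analysis had assumed raw counts. TopHat2, edgeR and hg19 are named in the submitters' processing notes. No counter, annotation or strand setting is given in the sources used here. Inverting the adjustment in R 4.3.3 gave whole reads for 100% of 18859 lines per library, at a relative tolerance of 1e-05, and 19 repeated lines were dropped. The step was also run on simulated reads that had been put through the same adjustment. That run tests the inversion and cannot show that the assumed form of the adjustment is right.

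CPM used TMM factors (0.929 to 1.08) in Python 3.11.15, so that 1 read was worth 0.0722 to 0.157 CPM. Genes whose mean reached 1 CPM were compared, with 0.5 CPM added for calls and log2 medians. Folds of single genes had nothing added. Level intervals were exact Poisson and fold intervals exact conditional binomial (Clopper-Pearson), both at 95%. They cover counting error only, since reads lacking molecular identifiers may repeat 1 molecule, and spread between cultures is unknown. Exon lengths and 3′ regions came from GENCODE v29. The genes named with full values were those past 1.5-fold against both controls (up to 25 per comparison), the extremes of each family, up to 3 per direction in each further list, and the 5 largest each way in the other comparisons. Genes outside that rule were chosen after their values were seen. The members, lists and thresholds were chosen with earlier results of these data known. Alternatives were other scalings, filters, pseudocounts and thresholds and leaving out a control. Leaving out the copies, and counting 1 identical pair of listed genes once, was chosen after seeing the data. A planned comparison of protein sequences was not made. SF1, USP39, LSM1, SRPK1, TNPO3, RNPS1, KHDRBS1, RBMX and AURKB were not analysed here. SRSF6, SNRPC and SNRPE, whose symbols would have made them members, had no values, so family counts, shares and ranks leave them out. Values of some genes in the further lists are not reported here.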

Additional observations from a re-analysis of the deposited data

How the results depend on the processing

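No paired analysis was possible because each construct has 1 library and the labels carry no replicate number. The miR-105 result, 36 members higher with a median of 1.07, kept its direction and stayed within 1.5 times under every alternative run, with 37 to 40 higher and a median of 0.90 to 1.21 when a control was left out. The miR-105 count of members lower was 0 at 2-fold, 2 at a laxer threshold and 2 without GFP (SF3A2 added) or without vector (SF3B1 added). The MYC count of members higher, 11, was 18 with library totals, 4 at 2-fold, 27 at the laxer threshold and 13 to 20 without a control, where the share of all genes was 20.1% with library totals, 9.03% at 2-fold, 26.2% at the laxer threshold and 23.1% to 24.2% without a control. The MYC count lower was 1 at the laxer threshold. The MYC median, 0.47, was 0.58 with library totals, 0.53 as deposited and 0.38 without copies. With library totals the MYC medians were 0.67 (SR), 0.52 (hnRNP), 0.71 (snRNP) and 0.27 (SF3), as deposited 0.62, 0.47, 0.67 and 0.22, and without a control 0.50 to 0.72 (snRNP), 0.44 to 0.52 (hnRNP) and 0.11 to 0.38 (SF3). GFP against vector had 0 members higher with library totals, median-of-ratios, deposited values or 2-fold and 2 at the laxer threshold, and 0 lower at 2-fold and 18 at the laxer threshold, where 20.5% of all genes were lower and 27.4% higher. For miR-105 against MYC, 17 were higher with library totals (24.2% of all genes) and 13 at 2-fold (19%), and 1 was lower at 2-fold (19.8%). Among single genes, HNRNPA1 in miR-105 missed the threshold with library totals, as did HNRNPD in MYC with median-of-ratios scaling and with 2 CPM added, and 26 further values passed it that had not before, as higher except for SF3A2 and SF3B1 in miR-105. The alternatives change the scale, threshold or libraries used, and the cause was not tested otherwise. Depth limits miR-105 most, where 1 read was worth 0.157 CPM, and SRSF12, at 6 reads or fewer, allows no comparison.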

Other observations

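SNRPN, which encodes a tissue-restricted Sm protein and was left out of the member list, stood apart from its relatives. It had 437 reads (41.4 CPM) in the library labelled MYC, 2 in vector and 0 in GFP and in miR-105. This gene was named after its values were seen, and without a replicate the difference holds for these libraries only.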
